A study of Bos taurus with 6 samples.

Results

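The citric acid cycle genes described here are SUCLG1, SUCLG2, SUCLA2, CS, IDH3A, IDH3B, OGDH, FH and MDH2. They were chosen by gene symbol, and each of the 9 symbols matched 1 of the 47249 entries in the table of genes. By the study's account, the libraries came from testis RNA of untreated Wandong cattle, with ribosomal RNA removed and 1 library per animal. The library labelled calf 3 differed from this account in its cell markers, which are given below. The immature group held 3 calves (3 ± 0.24 months old) and the mature group 3 bulls (3 ± 0.014 years old). Levels are given as FPKM, a fragment count scaled to transcript length and library size, so that levels of different genes can be compared within a library. Values of a group are listed in the order of animal number. In a whole testis, fewer cells of a type and less RNA per cell cannot be told apart.

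The citric acid cycle oxidises acetyl-CoA in the mitochondrial matrix and passes electrons to the respiratory chain. Citrate synthase (CS) starts the cycle, isocitrate dehydrogenase 3 and oxoglutarate dehydrogenase release carbon dioxide, succinyl-CoA ligase forms ATP or GTP, and fumarase (FH) and malate dehydrogenase 2 (MDH2) restore oxaloacetate. In the testis, Sertoli cells supply germ cells with lactate, which meiotic and later germ cells oxidise in their mitochondria.

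The library labelled calf 3 stood apart from the other libraries. Its summed FPKM over 6 Sertoli cell markers was 14.8, against 1786 and 1456 in the other calves and 117 to 148 in bulls, and FSHR, GATA4 and WT1 were listed at 0. Most of the 14.8 was SOX9, at 13.7 in calf 3, 21.9 and 25.6 in the other calves and 9.99 to 10.8 in bulls. Over 5 Leydig cell markers the sum was 0.502 in calf 3 and 1085 to 2593 elsewhere, with CYP11A1 listed at 0 in calf 3. All 7 markers of brain cells were highest in calf 3, with a sum of 8130 against 6.02 to 11.5 elsewhere. The 5 spermatid markers summed to 0.810 to 2.57 in calves and to 12925 to 14641 in bulls. The part of these differences in the results below was not tested, and the results for the 9 genes and the lists are given with and without calf 3.

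Between bulls and calves, 0 of the 9 genes were called differentially expressed, whereas 45.3% of the 18115 genes tested were. A call required an adjusted p below 0.05 and a change of at least 2-fold on the log2(FPKM + 1) scale (limma, Benjamini-Hochberg over all genes tested), a scale that understates the change of genes at low levels. An unadjusted p below 0.05 was found for 4 of the 9 genes, against 61% of all genes. The groups did not overlap in 5 of the 9 genes, against 67.4%. The median log2 change of the 9 genes was −0.35, and that of all genes tested was 0.43. Without calf 3, again 0 of 9 were called, against 51.5% of all genes, and the medians were −0.04 and 0.43. The groups then did not overlap in 6 of the 9 genes, against 84.4%, with the bulls lower in 4, against 30.9%. An adjusted p below 0.05 was then reached by 5 of the 9 genes, against 75.8%, with 4 lower and 1 higher in bulls, against 26.6% and 49.3%. The count of 0 changed without calf 1, when IDH3A was called lower in bulls (−1.35, adjusted p = 0.0122), as were 9.19% of all genes. The count also changed after quantile normalization, when CS, FH, IDH3A and MDH2 were called lower, as were 25.1% of all genes. After scaling by median ratios IDH3A was called lower, as were 11.8%. With libraries rescaled to the same sum, CS, FH, IDH3A and MDH2 had log2 changes of −0.81, −0.14, −0.81 and −0.59. Their adjusted p there was 0.331, 0.673, 0.280 and 0.316, so none of these genes was called. That rescaling was not run without calf 3.

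**Figure D1:**
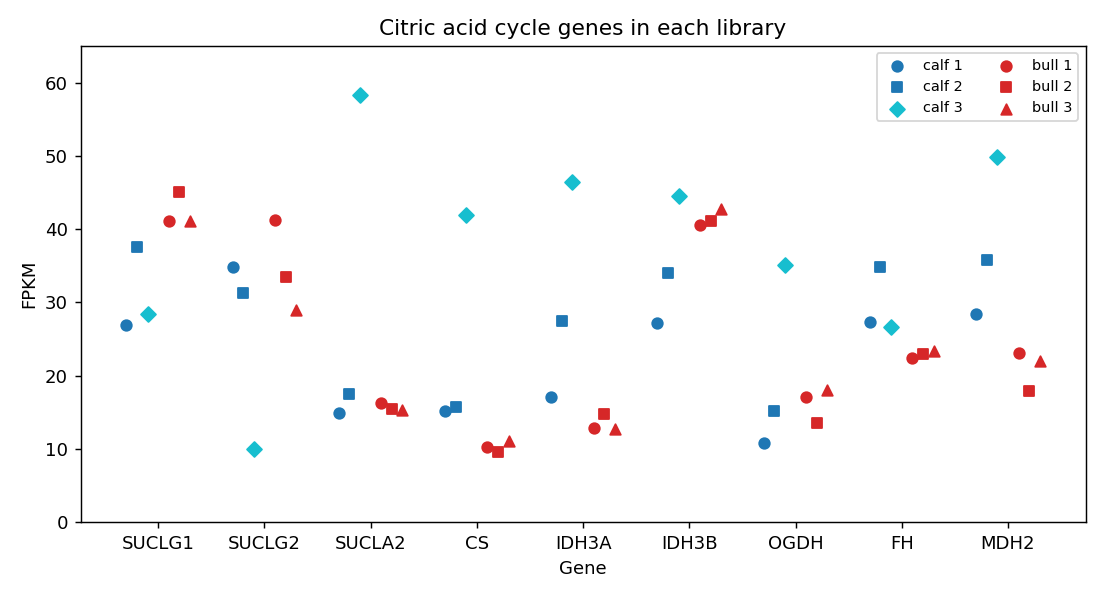
FPKM of the 9 citric acid cycle genes in each library, 1 point per animal, by group. Calf 3 was the highest library in 6 of the 9 genes and the lowest in SUCLG2.

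Citrate synthase condenses acetyl-CoA with oxaloacetate. The FPKM of CS (ENSBTAG00000004371, chromosome 5, 57042171 to 57065001) was 15.2, 15.7 and 41.9 in calves against 10.3, 9.64 and 11.1 in bulls. All bulls lay below all calves, and calf 3 lay farther from the other calves than these did from the bulls. The log2 change was −0.998 with SE 0.40 and adjusted p = 0.0788, and without calf 3 it was −0.54 (95% interval −0.82 to −0.26, adjusted p = 0.00573). In every bull, CS had the lowest FPKM of the 9 genes.

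Isocitrate dehydrogenase 3 is an NAD-dependent enzyme built from the catalytic alpha subunit IDH3A, the beta subunit IDH3B and the gamma subunit IDH3G. IDH3A (ENSBTAG00000006227, chromosome 21, 30538294 to 30554581) stood at 17.1, 27.4 and 46.4 in calves against 12.9, 14.8 and 12.7 in bulls. The groups did not overlap, although the calves differed from each other by more than the bulls did. Its log2 change was −1.01 with SE 0.36 and adjusted p = 0.0533, and −0.65 (95% interval −1.15 to −0.15, adjusted p = 0.0269) once calf 3 was left out. IDH3B (ENSBTAG00000018813, chromosome 13, 52514469 to 52519429) stood at 27.2, 34.02 and 44.5 in calves against 40.5, 41.1 and 42.8 in bulls. Calf 3 lay above the bulls, and the other calves lay below them. The log2 change of IDH3B was 0.26 with SE 0.21 and adjusted p = 0.332, and 0.43 (95% interval 0.14 to 0.73, adjusted p = 0.0174) without calf 3, but it was negative after quantile normalization (−0.53, and −0.38 without calf 3). IDH3G, named after its values were seen, stood at 22.0, 26.7 and 18.5 in calves against 11.7, 16.6 and 18.0 in bulls, with a log2 change of −0.51 (adjusted p = 0.1002) and of −0.64 (adjusted p = 0.0265) without calf 3.

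The ratio of the alpha to the beta subunit, which a linear rescaling of a library leaves as it is, was 0.628, 0.806 and 1.04 in calves and 0.319, 0.359 and 0.297 in bulls. Every bull lay below every calf, calf 3 included. The ratio of the beta to the gamma subunit was 1.24, 1.27 and 2.40 in calves and 3.45, 2.47 and 2.37 in bulls, so that the groups overlapped through calf 3. The ratio of the alpha to the gamma subunit was 0.775, 1.03 and 2.50 in calves and 1.10, 0.887 and 0.704 in bulls, with overlap between the groups with and without calf 3. These ratios were chosen after their values were seen and were not tested.

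Among the 28 transcript entries of the 9 genes, 14 passed the filter and 2 were called, against 44.2% of all 23212 transcripts tested. Without calf 3 the number called was again 2, against 49.2%. IDH3B has a pair of entries, whose spans differ by 32 and 4 bases at their ends. IDH3B-202 (ENSBTAT00000025044, chromosome 13, 52514501 to 52519425) stood at 9.65, 12.8 and 12.4 in calves against 26.8, 33.1 and 29.0 in bulls. It was called higher in bulls, as were 34.8% of all transcripts, with a log2 change of 1.28 with SE 0.18 and adjusted p = 0.00155. Without calf 3 it was again called higher (1.33, adjusted p = 0.00115), as were 36.1%. IDH3B-201 (ENSBTAT00000045446, chromosome 13, 52514469 to 52519429) stood at 17.6, 21.2 and 32.1 in calves against 13.7, 8.0 and 13.7 in bulls. Its log2 change of −0.93 with SE 0.31 and adjusted p = 0.0452 was below the size required for a call, and it was −0.70 (adjusted p = 0.0590) without calf 3. As a share of the FPKM of IDH3B, IDH3B-202 made up 35.4%, 37.7% and 27.9% in calves and 66.2%, 80.5% and 67.8% in bulls. The share in every bull was above that in every calf, and calf 3 had the lowest share. After quantile normalization, IDH3B-202 was higher in bulls by less than 2-fold (0.59, adjusted p = 0.0285), and its adjusted p over the 16 alternatives lay between 0.000293 and 0.0285. The tables give no exons and no counts of the fragments that both entries share.

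**Figure D2:**
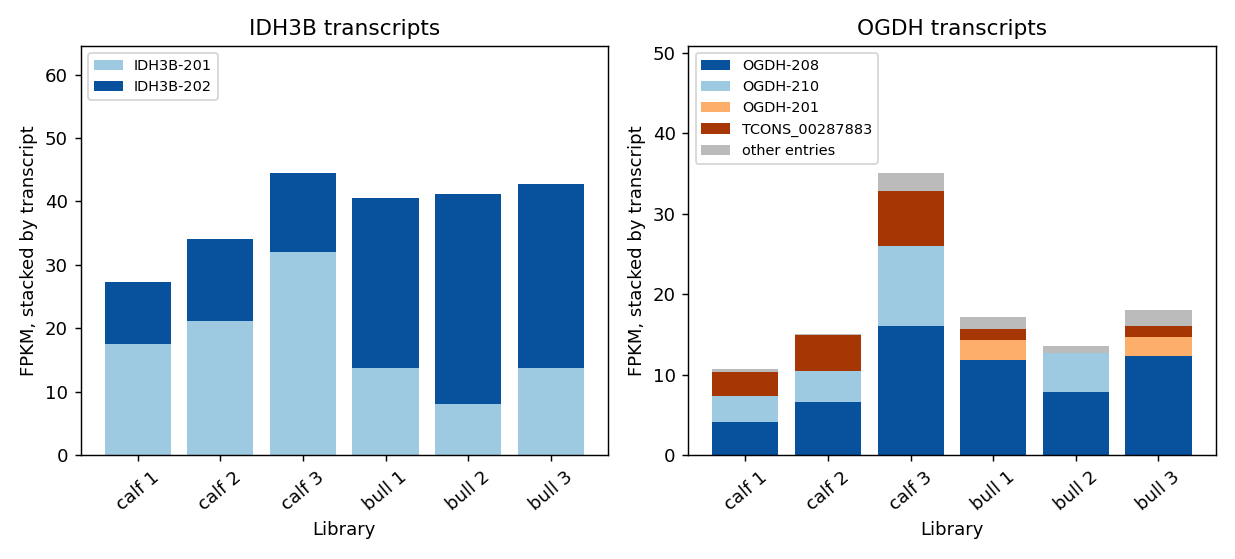
FPKM of IDH3B (left) and OGDH (right) in each library, stacked by transcript entry. IDH3B-202 filled 27.9% to 37.7% of the bar in calves and 66.2% to 80.5% in bulls, and the assembled OGDH entry TCONS_00287883 was smaller in bulls than in calves.

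OGDH encodes the first enzyme of the oxoglutarate dehydrogenase complex, which forms succinyl-CoA. The FPKM of OGDH (ENSBTAG00000006029, chromosome 4, 76758562 to 76844759) was 10.8, 15.1 and 35.1 in calves against 17.2, 13.5 and 18.1 in bulls. The groups overlapped, and calf 3 lay above all other libraries. The log2 change was −0.15 with SE 0.43 and adjusted p = 0.786, and 0.31 (95% interval −0.15 to 0.78, adjusted p = 0.177) without calf 3, with the opposite sign.

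Of the 12 transcript entries of OGDH, 5 were listed at 0 in all libraries and 4 were tested. TCONS_00287883 (chromosome 4, 76758582 to 76778674), an entry assembled from the reads, stood at 3.05, 4.46 and 6.87 in calves against 1.32, 0 and 1.32 in bulls. It was called lower in bulls, as were 9.37% of all transcripts, with a log2 change of −1.67 with SE 0.43 and adjusted p = 0.0189. Without calf 3 it was again called lower (−1.42, adjusted p = 0.0321), as were 13.1%. It was not called with a pseudocount of 0.1 (adjusted p = 0.0700) or with libraries rescaled to the same sum (adjusted p = 0.0626). OGDH-208 (ENSBTAT00000068735), with the highest level of these entries, stood at 4.09, 6.58 and 16.1 in calves against 11.9, 7.80 and 12.4 in bulls, with a log2 change of 0.40 (adjusted p = 0.508) and of 0.89 (adjusted p = 0.0322) without calf 3. OGDH-210 (ENSBTAT00000007922) stood at 3.25, 3.86 and 9.93 in calves against 0, 4.90 and 0 in bulls. OGDH-201 was listed above 0 only where OGDH-210 was at 0, in bull 1 (2.44) and bull 3 (2.34). TCONS_00287883, at 0 in bull 2, starts at the same base as OGDH-201, OGDH-208 and OGDH-210. How fragments were divided among these entries is uncertain, which also limits the call of TCONS_00287883. The number of called entries of the 9 genes was 4 without calf 1, IDH3B-201 among them as lower in bulls, and 3 without bull 2, with OGDH-210 added as lower. Of all transcripts, 42.4% were called without calf 1 (8.72% lower) and 39.4% without bull 2 (6.88% lower).

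Succinyl-CoA ligase joins the alpha subunit SUCLG1 to either of the beta subunits SUCLG2, which forms GTP, and SUCLA2, which forms ATP. SUCLG1 (ENSBTAG00000006075, chromosome 11, 50516577 to 50551425) stood at 27.0, 37.6 and 28.4 in calves against 41.1, 45.1 and 41.1 in bulls. Every bull lay above every calf, with a log2 change of 0.46 with SE 0.18 and adjusted p = 0.0691. Without calf 3 it was 0.40 (95% interval 0.02 to 0.78, adjusted p = 0.0535), and after quantile normalization it was −0.32 (adjusted p = 0.159).

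SUCLG2 (ENSBTAG00000009541, chromosome 22, 33859633 to 34134874) has the longest locus of the 9 genes, 275242 bases, and is a circRNA host gene in the study. FPKM does not separate linear from circular RNA. SUCLG2 stood at 34.9, 31.3 and 9.97 in calves against 41.2, 33.5 and 28.9 in bulls. The other calves lay within the range of the bulls, and calf 3 was far below every other library. The log2 change was 0.59 with SE 0.48 and adjusted p = 0.334, and 0.05 (95% interval −0.35 to 0.45, adjusted p = 0.807) without calf 3. It was negative after quantile normalization (−0.13, and −0.74 without calf 3) and after scaling by median ratios without calf 3 (−0.21). SUCLA2 (ENSBTAG00000006759, chromosome 12, 17809328 to 17853938) stood at 14.9, 17.5 and 58.3 in calves against 16.3, 15.4 and 15.3 in bulls. Calf 3 was the highest library, and the other calves overlapped with the bulls. The log2 change was −0.64 with SE 0.51 and adjusted p = 0.325, and −0.04 (95% interval −0.33 to 0.24, adjusted p = 0.760) without calf 3.

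The ratio of SUCLG2 to SUCLA2 was 2.34, 1.80 and 0.171 in calves and 2.53, 2.18 and 1.90 in bulls. The beta subunit that forms GTP had the higher level in 5 libraries and the lower level in calf 3. On the log2 scale, bulls exceeded calves by 1.29 (exact permutation test, two-sided, p = 0.4, where 20 labelings allow a smallest p of 0.1). Without calf 3 the difference was 0.09 (exact permutation test, two-sided, p = 0.7, smallest possible 0.1). The ratio of SUCLG1 to the sum of both beta subunits was 0.542, 0.770 and 0.416 in calves and 0.715, 0.923 and 0.932 in bulls, and calf 2 overlapped with the bulls.

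**Figure D3:**
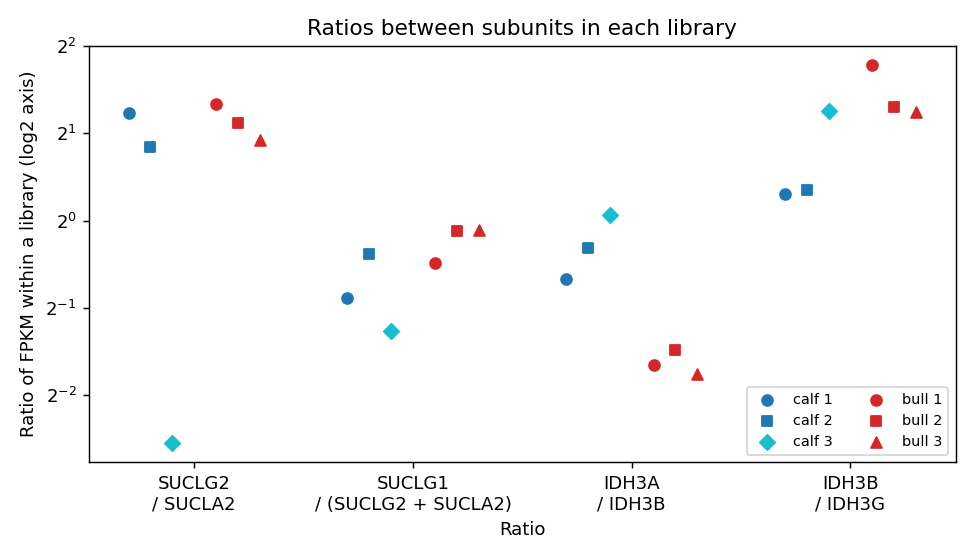
Ratios of FPKM between subunits of succinyl-CoA ligase and of isocitrate dehydrogenase 3 within each library, on a log axis, 1 point per animal. Calf 3 stood at 0.171 for SUCLG2 to SUCLA2, and IDH3A to IDH3B lay between 0.297 and 0.359 in bulls and between 0.628 and 1.04 in calves.

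Part of the FPKM of SUCLA2 in bulls came from a pair of entries named as antisense, SUCLA2-AS1 and SUCLA2-AS2. Their sum was 0.987, 0.949 and 1.73 in bulls, or 6.06%, 6.16% and 11.3% of the gene's value, and 0 in all calves. For OGDH, the antisense entry made up 0.960% to 1.39% of the gene's value in calves and 2.44% to 5.23% in bulls. The libraries kept the strand of the RNA, but whether it was used in making the FPKM values is not given in the sources used here, so the division between sense and antisense entries is uncertain.

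Among the 13753 tested genes with a symbol, those most like SUCLG2 over the 6 libraries were KHNYN, OS9 and RIPK1, with Pearson correlations of 0.997, 0.996 and 0.995 on the log2(FPKM + 1) scale. Each was lowest in calf 3 and highest in bull 1, as SUCLG2 was. The points share library and depth, and the values are a description.

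Fumarase and malate dehydrogenase 2 carry out the last steps of the cycle. FH (ENSBTAG00000021688, chromosome 16, 35260924 to 35288027) stood at 27.3, 34.8 and 26.7 in calves against 22.4, 23.0 and 23.3 in bulls. All bulls lay below all calves, and calf 3 did not stand apart from calf 1. The log2 change was −0.35 with SE 0.16 and adjusted p = 0.112, and −0.41 (95% interval −0.73 to −0.10, adjusted p = 0.0256) without calf 3. MDH2 (ENSBTAG00000009462, chromosome 25, 34254236 to 34266939) stood at 28.4, 35.9 and 49.8 in calves against 23.1, 17.9 and 22.0 in bulls, again without overlap. MDH2 alone of the 9 genes had an adjusted p below 0.05 with all libraries, against 56.1% of all genes tested, with a log2 change of −0.80 with SE 0.24 and adjusted p = 0.0321, below the size required for a call. The adjusted p of MDH2 was above 0.05 with no filter on low values (0.0515), with libraries rescaled to the same sum (0.316), without calf 2 (0.0694) and without bull 1, bull 2 or bull 3 (0.0719, 0.114 and 0.0832). Without calf 3, the log2 change was −0.59 (95% interval −0.98 to −0.20, adjusted p = 0.0151).

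**Figure D4:**
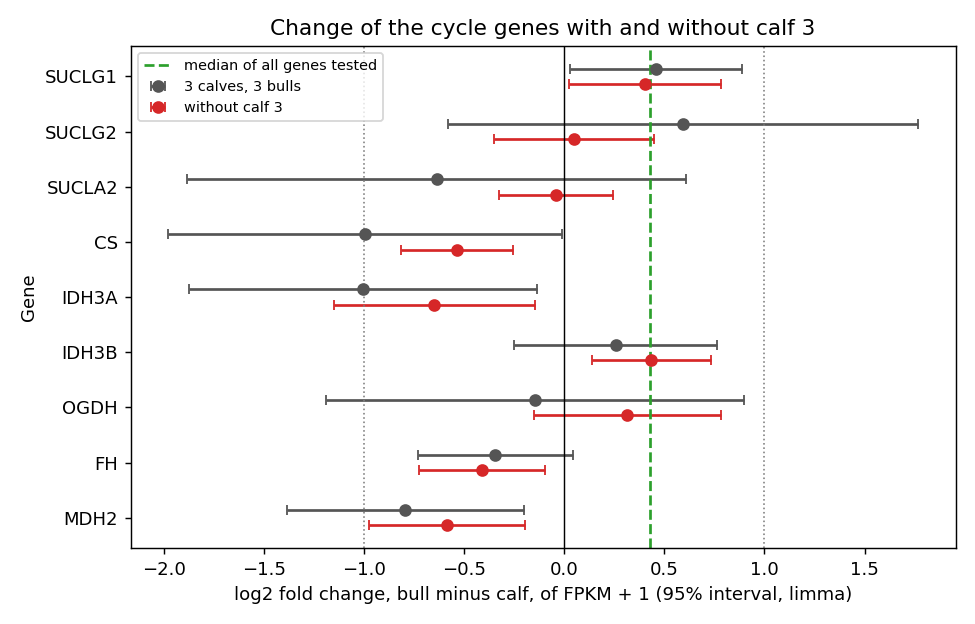
Log2 change (bull minus calf) of FPKM + 1 for the 9 genes with 95% intervals from limma, with all libraries and without calf 3. With the deposited scaling CS, IDH3A, FH, MDH2 and SUCLA2 lay below 0 in both fits and OGDH changed sign, and after quantile normalization SUCLG1, SUCLG2 and IDH3B were also below 0.

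Relative to the median of all genes tested, the log2 changes of CS, IDH3A, FH and MDH2 lay at −0.97, −1.08, −0.85 and −1.02 without calf 3. Those of SUCLG1, SUCLG2 and SUCLA2 lay at −0.03, −0.39 and −0.47, and those of IDH3B and OGDH at 0.001 and −0.12. The median itself was 0.43 with the deposited scaling, 0.63 with libraries rescaled to the same sum, 0.31 after scaling by median ratios and −0.26 after quantile normalization, and the genes called were 6474 higher and 1741 lower with the deposited scaling and 3827 higher and 4538 lower after quantile normalization. The log2 changes of CS, IDH3A, FH, MDH2 and SUCLA2 were negative under all 16 alternatives. Rescaling to the same sum was not run without calf 3, so the 16 alternatives do not cover that setting. Calf 1 and calf 2 had larger sums of FPKM than every bull, so such rescaling raises the bulls against them. Divided by the sums given next, FH and SUCLA2 are on average higher in bulls than in calf 1 and calf 2. The summed FPKM of all genes was 1066180, 1098720 and 587066 in calves against 776839, 770191 and 732130 in bulls.

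In bulls, SUCLG1 and IDH3B had the highest mean FPKM (42.5 ± 2.30 and 41.5 ± 1.17, SD, n = 3), followed by SUCLG2 (34.5 ± 6.22), FH (22.9 ± 0.475), MDH2 (21.0 ± 2.75), OGDH (16.2 ± 2.41), SUCLA2 (15.6 ± 0.562), IDH3A (13.5 ± 1.13) and CS (10.4 ± 0.739). The ranges of neighbours in this order overlapped, except between SUCLG2 and FH, SUCLA2 and IDH3A, and IDH3A and CS. In calf 1 and calf 2, SUCLG2, SUCLG1, MDH2, FH and IDH3B had mean FPKM from 33.1 down to 30.6, each overlapping the next. IDH3A followed at 22.2, and SUCLA2, CS and OGDH at 16.2, 15.5 and 12.9, where CS and OGDH did not overlap. Calf 2 was above calf 1 in 8 of the 9 genes, against 59.1% of all genes tested.

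In calf 3, SUCLA2, OGDH, CS and IDH3A were at least 2-fold above the mean of the other calves on the log2(FPKM + 1) scale, as were 13.8% of all genes tested. SUCLG2 was at least 2-fold below it, as were 15.4%. In FPKM, SUCLA2 in calf 3 was 3.61 times and SUCLG2 0.301 times that mean. Of the 9 genes, 6 had their highest level in calf 3, against 21.9% of all genes.

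Around these genes, 6 lists were examined, which cover other enzymes of the cycle, pyruvate entry, refilling and succinyl-CoA supply, cytosolic counterparts, mitochondrial carriers, and mitochondrial structure and import. Of the 56 genes counted, 10 were called higher and 9 lower in bulls, against 35.7% and 9.61% of all genes tested, and their median log2 change was 0.02. Without calf 3, 13 were called higher and 6 lower, against 37.9% and 13.6%, with a median of 0.16. After quantile normalization, 4 were called higher and 19 lower, against 21.1% and 25.1% of all genes. On the TPM scale, where each library is rescaled to the same sum, 12 were called higher and 2 lower, against 38.4% and 6.35%.

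Of the 10 other enzymes of the cycle, 1 was called lower and 0 higher, against 9.61% and 35.7% of all genes. Their median log2 change was −0.19. Without calf 3, 1 was called lower and 1 higher, against 13.6% and 37.9%. IDH2, the NADP-dependent mitochondrial isocitrate dehydrogenase, stood at 18.0, 20.8 and 26.9 in calves against 7.29, 9.27 and 7.69 in bulls and was called lower (−1.32, adjusted p = 0.00203, and −1.17, adjusted p = 0.000513, without calf 3), though not on the TPM scale (−1.14, adjusted p = 0.0561). Of the 4 subunits of succinate dehydrogenase, SDHB had a positive log2 change and the others negative ones, and 0 were called. The groups did not overlap in any of the 4, nor did they in 67.4% of all genes tested. SDHB, the iron-sulfur subunit, stood at 47.7, 51.7 and 48.7 in calves against 96.5, 93.0 and 100.2 in bulls, with a log2 change just under the size required (0.95, adjusted p = 0.00165, and 0.94, adjusted p = 0.000203, without calf 3), and of 0.16 (adjusted p = 0.346) after quantile normalization. SDHC, a membrane anchor, stood at 41.9, 37.9 and 31.1 in calves against 20.1, 25.3 and 19.5 in bulls (−0.74, adjusted p = 0.0151, and −0.86, adjusted p = 0.00179, without calf 3). SDHD, the other membrane anchor, and the flavoprotein SDHA were named after their values were seen. SDHD stood at 35.6, 30.3 and 28.6 in calves against 20.3, 20.5 and 19.3 in bulls (−0.62, adjusted p = 0.0127, and −0.69, adjusted p = 0.00173, without calf 3), and SDHA at 68.2, 77.3 and 83.7 in calves against 64.1, 60.7 and 61.6 in bulls (−0.29, adjusted p = 0.150, and −0.22, adjusted p = 0.0816, without calf 3). OGDHL, a relative of OGDH, stood at 1.75, 3.38 and 10.7 in calves against 7.80, 8.58 and 11.1 in bulls, and was called higher without calf 3 (1.53, adjusted p = 0.00168) but not with it (0.95, adjusted p = 0.179).

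Among the 13 genes of pyruvate entry, 3 were called higher and 2 lower in bulls, against 35.7% and 9.61% of all genes. Their median log2 change was 0.53. Without calf 3, 4 were called higher and 2 lower, against 37.9% and 13.6%. PDHA2, a testis form of the alpha subunit of pyruvate dehydrogenase, stood at 0.0400, 0.0201 and 0 in calves against 161, 175 and 198 in bulls and was called higher (7.45, adjusted p = 2.53e-06, and 7.44, adjusted p = 4.27e-07, without calf 3). PDHA1, the form of other tissues, stood at 12.4, 13.0 and 25.8 in calves against 3.78, 3.74 and 4.20 in bulls and was called lower (−1.81, adjusted p = 0.00299, and −1.49, adjusted p = 0.000108, without calf 3). Both are related copies, and how fragments were divided between them is uncertain. PDHB, the beta subunit, was called higher (1.44, adjusted p = 0.00172, and 1.64, adjusted p = 2.60e-05, without calf 3), though below 2-fold after quantile normalization (0.65). Of the kinases that inhibit pyruvate dehydrogenase, PDK1 was called higher (1.97, adjusted p = 0.000171, and 2.10, adjusted p = 9.72e-06, without calf 3). PDK4, named after its values were seen, was called lower (−1.21, adjusted p = 0.0188, and −1.15, adjusted p = 0.0195, without calf 3), though not on the TPM scale or without calf 1, bull 1 or bull 2 (adjusted p = 0.0998, 0.0603, 0.0689 and 0.0690).

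In refilling and succinyl-CoA supply, 1 of 13 genes was called higher and 2 lower, against 35.7% and 9.61% of all genes. Their median log2 change was −0.22. Without calf 3, 2 were called higher and 2 lower, against 37.9% and 13.6%. PCCA, a subunit of propionyl-CoA carboxylase, was called higher (1.28, adjusted p = 0.00302, and 1.41, adjusted p = 0.000502, without calf 3), though below 2-fold after quantile normalization (0.62). OXCT1, which transfers coenzyme A from succinyl-CoA to ketone bodies, was called lower (−1.08, adjusted p = 0.00611, and −1.26, adjusted p = 0.000224, without calf 3), though below 2-fold on the TPM scale (−0.89) and without calf 2 (−0.92). ALDH5A1, which forms succinate in the breakdown of GABA, stood at 6.47, 4.32 and 19.9 in calves against 2.92, 4.26 and 1.61 in bulls and was not called (−1.32, adjusted p = 0.0932, and −0.74, adjusted p = 0.0787, without calf 3).

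Of the 7 cytosolic counterparts, 1 was called higher and 2 lower, against 35.7% and 9.61% of all genes. Their median log2 change was 0.05. Without calf 3, 2 were called higher and 0 lower, against 37.9% and 13.6%. MDH1B, a relative of malate dehydrogenase, was called higher (1.62, adjusted p = 0.00467, and 1.60, adjusted p = 0.00408, without calf 3), though just below 2-fold after quantile normalization (0.99). MDH1 and ACLY, the cytosolic malate dehydrogenase and ATP citrate lyase, were called lower (−1.41 and −1.28, adjusted p = 0.0474 and 0.0325), but the calls were lost in 8 and 7 of the 16 alternatives. The adjusted p of MDH1 was 0.136, 0.113 and 0.122 without bull 1, bull 2 or bull 3, 0.0658 without calf 2 and 0.208 on the TPM scale. That of ACLY was 0.115 and 0.104 without bull 1 or bull 2, 0.0532 without calf 2 and 0.186 on the TPM scale. GOT1, a cytosolic aspartate aminotransferase, stood at 7.40, 9.61 and 72.2 in calves against 36.4, 28.5 and 30.3 in bulls and was not called (0.80, adjusted p = 0.443).

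Of the 5 carriers counted, 1 was called lower and 0 higher, against 9.61% and 35.7% of all genes. Their median log2 change was −0.08, and 0 were called without calf 3, against 51.5%. SLC25A11, which exchanges oxoglutarate and malate, was called lower (−1.24, adjusted p = 0.00977), though not on the TPM scale (adjusted p = 0.129). The log2 changes of the citrate carrier SLC25A1 and of the glutamate carriers SLC25A22 and SLC25A13 were 0.82, 0.36 and −0.18 (adjusted p = 0.0572, 0.562 and 0.689), and 0.53, 0.92 and 0.19 without calf 3 (adjusted p = 0.0243, 0.00133 and 0.345), and their signs changed under at least 1 alternative.

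Of the 8 genes of mitochondrial structure and import, 5 were called higher and 1 lower in bulls, against 35.7% and 9.61% of all genes. Their median log2 change was 1.31. Without calf 3, 4 were called higher and 1 lower, against 37.9% and 13.6%. TFAM, which packages mitochondrial DNA and activates its transcription, stood at 14.8, 14.1 and 13.2 in calves against 197, 205 and 226 in bulls (3.81, adjusted p = 9.63e-06, and 3.77, adjusted p = 1.20e-06, without calf 3). The channels of the outer membrane differed in direction. VDAC3 was called higher (2.34, adjusted p = 6.11e-05, and 2.31, adjusted p = 6.24e-06, without calf 3), as was VDAC2 (1.61, adjusted p = 0.00205, and 1.83, adjusted p = 6.18e-05, without calf 3). VDAC1, named after its values were seen, stood at 39.3, 48.7 and 84.1 in calves against 19.6, 18.9 and 17.4 in bulls and was called lower (−1.50, adjusted p = 0.00604, and −1.19, adjusted p = 0.000287, without calf 3), though not on the TPM scale (adjusted p = 0.0812). TIMM23, of the inner membrane import channel, was called higher (1.69, adjusted p = 0.000750, and 1.74, adjusted p = 0.000329, without calf 3). After quantile normalization, VDAC2 and TIMM23 were below the size required (0.81 and 0.998).

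Leaving out calf 3 changed 8 calls among the 56 genes, and PDK2, ABAT and TOMM20 were named after their values were seen. OGDHL, PDK2, ABAT and GOT1 became called higher in bulls, with log2 changes of 1.53, 1.01, 2.03 and 1.79. MDH1, ACLY, SLC25A11 and TOMM20 were then below the size required, at −0.86, −0.91, −0.95 and 0.99. The call of TOMM20 was lost in 8 of the 16 alternatives, over which its log2 change went down to 0.26 and its adjusted p up to 0.191. ABAT, which breaks down GABA toward succinate, stood at 5.40, 5.95 and 66.4 in calves against 24.7, 25.3 and 29.2 in bulls.

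**Figure D5:**
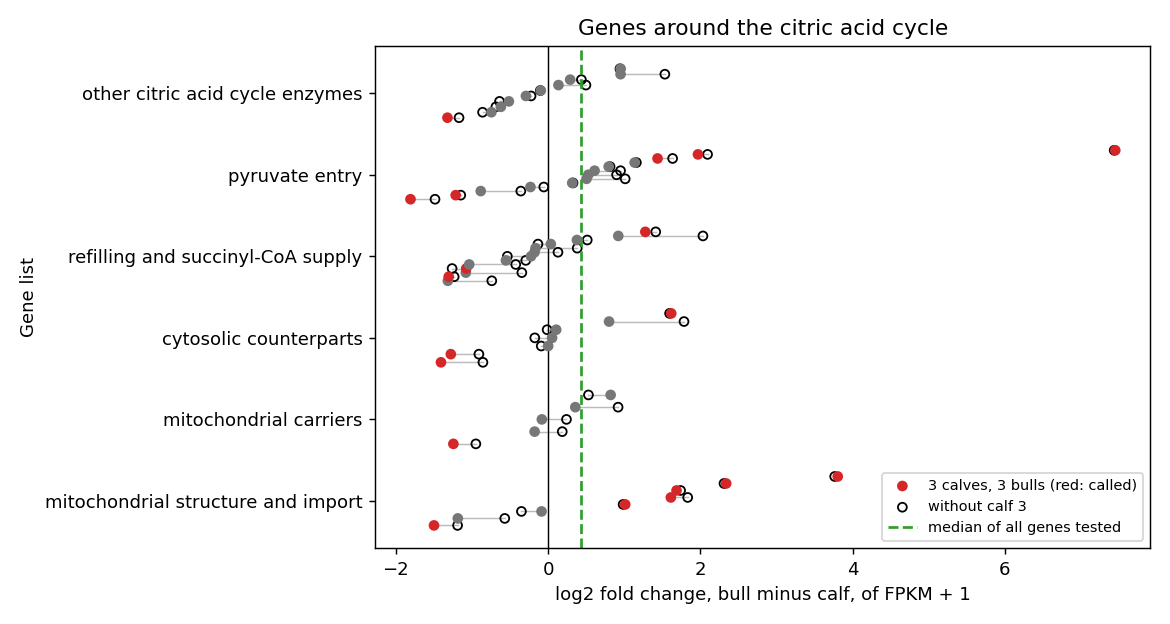
Log2 change (bull minus calf) of FPKM + 1 for the 56 counted genes in 6 lists around the cycle, with all libraries and without calf 3. With the deposited scaling 10 were called higher and 9 lower, and after quantile normalization 4 higher and 19 lower, against 21.1% and 25.1% of all genes tested.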

How the data were processed

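The authors deposited FPKM values per gene and per transcript for each library. By the study's methods, reads of low quality and reads of ribosomal RNA (Bowtie2) were removed, and the others were mapped with TopHat2 2.0.3.12 and assembled with StringTie 1.3.1. The methods name Cuffdiff for circRNAs, and the tool that made the FPKM values of genes is not given in the sources used here. The tables hold no counts, so the depth behind a value is unknown and no counting interval was computed. The methods name UMD 3.1.1, but the positions printed are those of the tables, and all 9 genes overlap the RefSeq locus of the same symbol on ARS-UCD2.0.

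Values were transformed to log2(FPKM + 1). Features reaching an FPKM of 1 in 3 or more libraries were tested with limma 3.58.1 in R 4.3.3 (trend), which all 9 genes passed. The p-values of limma set the group difference against the spread between animals within groups, which with all libraries includes calf 3. Intervals are the 95% intervals of limma. The ratio was tested by exact permutation. Figures were drawn with matplotlib 3.10.9. The procedure was tested on simulated data. Members and lists were chosen with earlier results of these data known. All members were named, and from each list up to 4 genes, called genes first and then by size of change, and the 3 genes most like SUCLG2, beside those said to be chosen later. OXCT2, SLC25A10 and SLC25A18 had no matching symbol, MUT is the older symbol of MMUT, and HSPD1, with 2 entries, and the Leydig marker CYP17A1, with 3, were not counted. The alternatives were another pseudocount, no filter, 3 scalings, array weights, no trend, a replicate block and each library left out. Quantile and median ratio scaling without calf 3 were added after seeing the data. A listed gene that the rule names is not reported here. No sequences were used here.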

Additional observations from a re-analysis of the deposited data

How the results depend on the processing

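The number of the 9 genes called was 0 with all libraries, 4 after quantile normalization (also without calf 3), 1 after median ratio scaling and 0 to 1 when each library was left out. Of all genes, 45.3%, 46.2% (51.5% without calf 3), 45.5% and 40.4% to 51.5% were called in these settings. After quantile normalization 25.1% were called lower (29.1% without calf 3). The number of transcripts of the 9 genes called was 2, and it was 7 after quantile normalization (6 without calf 3), 1 with a pseudocount of 0.1, 1 on the TPM scale and 2 to 4 when each library was left out. Of all transcripts, 47% (51.1% without calf 3), 48%, 43.6% and 38.9% to 49.2% were called in these alternatives. After quantile normalization, 25.3% were called lower (28.7% without calf 3), and the 7 and the 6 entries were all lower. Quantile normalization reversed IDH3B (−0.53), SUCLG1 (−0.32), SUCLG2 (−0.13), OGDH-208 (−0.19), SLC25A22 (−0.15) and PDK2 (−0.000517), and without calf 3 IDH3B (−0.38), SUCLG1 (−0.41), SUCLG2 (−0.74) and SLC25A1 (−0.29). OGDH reversed on the TPM scale (0.048), with array weights (0.27), without calf 3 (0.31) and with median ratio scaling without calf 3 (0.071), where SUCLG2 also reversed (−0.21). SLC25A13 reversed with array weights (0.16) and without calf 3 (0.19). When each library was left out, OGDH lay between −0.49 and 0.31 and SLC25A13 between −0.44 and 0.19. The cause was not tested. Over all 16 alternatives, the log2 fold changes of the 9 genes kept direction and call in 123 of 144 values, those of 32 other genes in 439 of 512, and those of 5 transcripts in 70 of 80. For the 9 genes, keeping the call means staying uncalled, and the size of a change is not counted. SUCLA2 was kept in all 16 while its log2 change went from −1.30 to −0.04. The number of all genes called lay between 7318 and 9470. With the replicate block, 8128 genes were called, 0 of the 9 genes, 19 listed genes and 2 transcripts, the adjusted p of MDH2 was 0.0572, and the SUCLG2 to SUCLA2 ratio differed by 1.29 (exact sign flips, p = 0.250, the smallest possible). The animals share only a number: same-numbered deviations correlated at 0.0246 to 0.0341, and those of calf 1 and bull 2 at 0.0221. In 6 of 6 libraries the own number correlated best, a count that reads the same correlations from the calf side and the bull side. Such small values cannot decide whether the animals were paired.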
